A study of Mus musculus with 2 samples.

Results

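The colony stimulating factors and their receptors are the 8 genes Csf1, Il34, Csf2, Csf3, Csf1r, Csf2ra, Csf2rb and Csf3r, chosen by name from the 32285 genes of the matrices. All 8 were present and all are accounted for below. Csf1 encodes macrophage colony stimulating factor and Il34 another ligand of the same receptor, the tyrosine kinase encoded by Csf1r. Csf2 encodes granulocyte-macrophage colony stimulating factor, which binds a receptor made of the alpha chain Csf2ra and the beta chain Csf2rb, and the beta chain also serves the receptors of IL-3 and IL-5. Csf3 encodes granulocyte colony stimulating factor, whose receptor is Csf3r. These factors sustain the survival, division and recruitment of macrophages, monocytes and granulocytes, and mice that lack CSF-1 have few mammary macrophages and poorly branched ducts.

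Mammary cells of female wild-type mice, aged 9 to 10 weeks by the labels of the samples and 8 to 10 weeks by the protocol, were compared between control animals (Ctrl) and animals given clodronate liposomes by intraperitoneal injection (CL). The liposomes are lipid vesicles that carry a drug lethal to the phagocytes that engulf them. The suspension was sorted for CD45+ leukocytes and for CD31-TER119- cells, so red cells and endothelial cells were to be depleted, and the endothelial share is set by that gate. The study's paper names only the CD31-TER119- gate for the single-cell libraries. How many animals were pooled, and in what proportion the sorted fractions were mixed, is not given in the sources used here.

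Each group had 1 library. Differences therefore carry no replicate check, no test was made, and the exact 95% intervals given cover counting error only. After filtering, 5937 cells remained in the library labelled Ctrl, with a median of 11351 UMIs (molecules counted by their unique molecular identifier), and 8826 in that labelled CL, with a median of 10337. Levels are given as CPM, the UMIs of a gene per 1000000 UMIs of a class of cells. A log2 ratio is that of the CPM in CL over the CPM in Ctrl. Droplets of 100 to 300 UMIs, which hold free RNA and no cell, gave the background. Among the candidate cells, 22 matrix columns were shared by both libraries.

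By the main naming the share of macrophage-like cells was lower in CL with overlapping intervals. The level of macrophage markers over all cells was higher. Macrophage-like cells, which carried C1qa, Adgre1, Mrc1 and the other markers of their list, numbered 41 in the library labelled Ctrl (0.691% of cells, interval 0.496% to 0.936%) and 43 in the library labelled CL (0.487%, 0.353% to 0.656%). Monocyte-like cells, which carried Ly6c2, Ccr2 and Chil3, numbered 18 in Ctrl (0.303%) and 212 in CL (2.40%). The summed level of the 10 macrophage markers over all cells came to 83.3 CPM in Ctrl against 235 CPM in CL, and of the 27598 marker UMIs in CL 17200 lay in the monocyte-like cells. The direction of the share depended on the naming. With each cell named alone, 44 of 5937 Ctrl and 83 of 8826 CL cells were macrophage-like, a higher share in CL. At a Leiden resolution of 0.5 they numbered 62 and 273, again a higher share in CL. The marker level thus did not follow the label of a depleted gland. The share did so by the main naming, within overlapping intervals, but not under these alternatives. Whether the labels of the libraries are right was not tested. Basal-like cells were 6.87% of Ctrl and 5.03% of CL cells. Endothelial-like cells, with all 7 markers of their list detected, numbered 53 and 60 in spite of the CD31 gate. No cluster took the name of neutrophils or dendritic cells.

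Upstream sequences are shown for a ligand and a receptor that were both counted in luminal cells as well as in other classes, Csf1 and Csf2ra. RefSeq promoter entries (GRCm38.p6) were matched by symbol for 4 of the 8 members, and the 250 bases before the RefSeq start are shown 5′ to 3′ on the strand of the gene. Capitals mark the match to the NF-kB motif in Csf1.
Csf1: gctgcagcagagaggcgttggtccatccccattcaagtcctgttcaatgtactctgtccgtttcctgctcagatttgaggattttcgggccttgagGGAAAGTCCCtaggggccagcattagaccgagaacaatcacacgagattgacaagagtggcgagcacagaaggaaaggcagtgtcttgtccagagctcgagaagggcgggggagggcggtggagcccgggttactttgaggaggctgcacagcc
Csf2ra: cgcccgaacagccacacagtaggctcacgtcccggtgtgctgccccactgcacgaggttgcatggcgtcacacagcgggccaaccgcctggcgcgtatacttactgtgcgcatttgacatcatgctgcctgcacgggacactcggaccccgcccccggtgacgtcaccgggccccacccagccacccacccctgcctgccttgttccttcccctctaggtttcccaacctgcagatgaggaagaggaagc
The Csf1 stretch lies at chr3:107760470-107760719 on the minus strand and that of Csf2ra at chr19:61228419-61228668 on the minus strand, where its last bases reach into the gene as GENCODE draws it. The motifs searched on both strands were NF-kB, the AP-1 motif TGANTCA, the PU.1 motif AGGAAGT and the TATA box TATAAA. The NF-kB motif was matched in the Csf1 stretch, on the opposite strand and beginning at position -154 from the RefSeq start. It was also matched in the window of Csf3r, on the opposite strand and at position -129 from the RefSeq start. The 250 bases before that start (chr4:126024409-126024658, plus strand) reach into the gene as GENCODE draws it, from 126024550, so the motif lies nearer to the GENCODE start. It is found in 7.01% of 27025 promoters. The other motifs, present in 6.87% (AP-1), 7.80% (PU.1) and 13.0% (TATA box) of promoters, were in none of the 4 windows. None of the motifs was in the windows of Csf2 and Csf2ra. The 250 bases before the RefSeq start of Csf2 (chr11:54249900-54250149, minus strand) lie wholly upstream of the gene as GENCODE draws it, from 54249667. The bases next to that GENCODE start were not searched. G and C made up 56.4% of the Csf1 and 64.8% of the Csf2ra stretch.

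Over all retained cells Csf3 was the member with most UMIs, and its level was higher in CL. Csf3 stood at 139 CPM in Ctrl and 361 CPM in CL, a log2 ratio of 1.38 (1.35 to 1.41). Csf1 stood at 52.4 and 54.0 CPM, within counting error (0.05, -0.01 to 0.10), but beyond it with doublets kept (0.07, 0.02 to 0.13) or TMM factors (0.09, 0.03 to 0.14). Il34 was lower in CL, at 2.52 and 1.02 CPM (-1.30, -1.64 to -0.98). The fibroblast-like cells, which held most of it, made up 3.77% of the Ctrl library against 2.70% of the CL library, and the sum of the 8 fibroblast markers over all cells was 1045 against 468 CPM, whose part in the Il34 ratio was not tested. Csf2 gave only 43 and 72 UMIs and did not differ beyond counting error (0.29, -0.27 to 0.87), and with cells weighted equally its ratio was 1.72.

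Among the receptors, Csf1r stood at 3.17 CPM in Ctrl and 5.02 CPM in CL (log2 ratio 0.66, 0.45 to 0.88). Csf2rb stood at 2.01 and 6.53 CPM (1.70, 1.46 to 1.95). Csf3r was counted 21 and 62 times (1.11, 0.38 to 1.90). Csf2ra alone among the receptors was lower in CL, at 29.2 and 24.7 CPM (-0.24, -0.32 to -0.17). For 3 members (Csf3, Csf2rb and Csf3r) the level was at least 2-fold higher in CL and for 1 (Il34) at least 2-fold lower. Of 15520 genes with at least 50 UMIs, 891 (5.74%) were past 2-fold in either direction. The median log2 ratio was 0.48 over the 8 members and -0.04 over all genes tested. In such sums a class with more cells and more RNA per cell cannot be told apart, and the macrophage markers and the number of monocyte-like cells were higher in CL, as were Csf1r, Csf2rb and Csf3r but not Csf2ra. The 7 neutrophil markers over all cells summed to 15.6 CPM in Ctrl against 107 CPM in CL, and their part in the Csf3r ratio was not tested.

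Leaving out clusters 6, 9 and 15, which drew over 90% of their cells from 1 library, changed the direction of both Csf1r (-0.41, -0.68 to -0.15) and Csf3r (-1.84, -3.37 to -0.48) over all cells. Cluster 15 is the monocyte-like one, 92.1% of it from CL. The same step left Csf2rb at 0.36 (0.01 to 0.71), Csf3 at 0.95 (0.91 to 0.98), and Csf1 at -0.30 (-0.36 to -0.24).

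**Figure D1:**
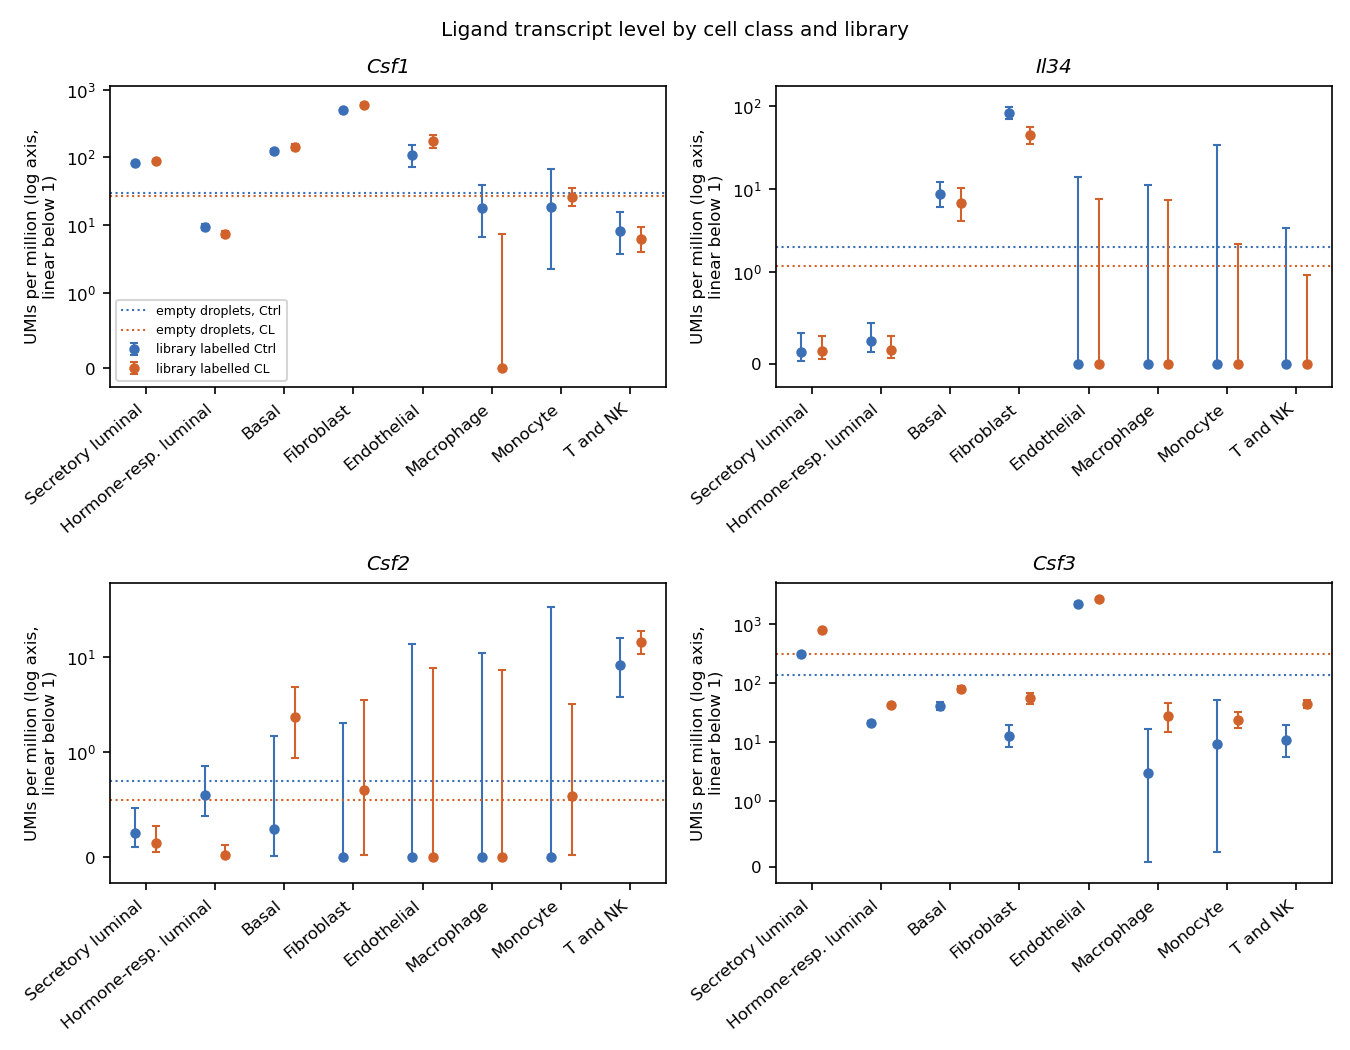
Level of the 4 ligands in CPM (vertical, logarithmic above 1) in 8 classes of cells (horizontal); points are the library labelled Ctrl (blue) and CL (orange) with exact 95% Poisson intervals, and dotted lines are the empty droplets. Csf1 and Il34 were highest in fibroblast-like cells, Csf2 in T and NK-like cells, and Csf3 in endothelial-like and secretory-lineage luminal-like cells.

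Csf1 (chr3:107741048-107760469, minus strand, GRCm38) had its highest level in fibroblast-like cells, at 494 CPM (462 to 527) in Ctrl and 591 CPM (554 to 630) in CL. The log2 ratio was 0.26 (0.13 to 0.39). Most Csf1 UMIs lay in secretory-lineage luminal-like cells, 2518 of 4508 in Ctrl and 3820 of 6352 in CL. The unnamed cluster 21, led by Ccl2, Ccl11 and Gpc3 and rich in fibroblast markers, stood at 287 and 219 CPM (-0.39, -1.28 to 0.47). Schwann cell markers (4 detected) gave a sum of 1092 CPM in its Ctrl cells against 5580 CPM in its CL cells, and their part in its levels was not tested. Basal-like cells gave 124 and 141 CPM, and their ratio was at the edge of counting error (0.19, -0.00 to 0.38). It ran from -0.04 with cells weighted equally to 0.30 (0.06 to 0.53) at a mitochondrial limit of 5%, and also passed counting error with at least 1000 genes per cell, no mitochondrial limit or TMM factors. Endothelial-like cells gave 108 and 173 CPM (0.68, 0.06 to 1.34) from 29 and 84 UMIs, and in Ctrl they did not differ beyond counting error from basal-like cells. The 8 hormone-responsive luminal markers summed to 870 CPM in the endothelial-like cells of Ctrl and 2958 CPM in those of CL, and their part in any ratio of this class was not tested. Secretory-lineage luminal-like cells stood at 81.5 and 87.4 CPM (0.10, 0.03 to 0.17). All these lay above the empty droplets, at 30.1 and 27.1 CPM. T and NK-like cells, at 8.30 and 6.27 CPM, and hormone-responsive luminal-like cells, at 9.33 and 7.41 CPM, lay below them. The macrophage-like cells, which carry the receptor, gave 6 Csf1 UMIs in Ctrl and 0 in CL.

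In cells thinned to a common depth of 1571 UMIs, Csf1 was detected in 35.7% of 207 fibroblast-like cells in Ctrl and in 35.0% of 214 in CL, with 17 and 24 shallower cells left out. Without thinning these shares were 61.6% and 58.0%, at medians of 7931.5 and 5512.5 UMIs per cell. In T and NK-like cells, thinned to 2320 UMIs, 3.14% of 191 and 1.04% of 675 cells held a Csf1 UMI, and unthinned 3.29% and 1.77%, at medians of 4872 and 4458 UMIs. Csf1 was unevenly spread among the secretory clusters. Cluster 3, led by Ltf and Wfdc18, had the highest level, 142 CPM in Ctrl and 132 CPM in CL, and held 344 and 962 cells. Cluster 2 was lower in CL (65.6 and 34.2 CPM, log2 ratio -0.94, -1.20 to -0.68), cluster 4 likewise (79.2 and 65.1 CPM, -0.28, -0.46 to -0.10), and cluster 7 higher (42.2 and 54.1 CPM, 0.36, 0.07 to 0.65). Clusters 3 (-0.11, -0.24 to 0.03) and 5 (-0.08, -0.25 to 0.08) did not differ beyond counting error, and cluster 9 gave 86.3 CPM in 17 Ctrl cells and 97.9 CPM in 650 CL cells. Without cluster 9 the Csf1 ratio of the class was 0.06 (-0.02 to 0.14), within counting error.

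The hormone-responsive ratio of Csf1 (-0.33, -0.54 to -0.12) depended on which cells bore the name. Cluster 10, with markers of both luminal lineages, was left unnamed and held 124 Ctrl and 509 CL cells. With it counted as hormone-responsive the ratio became 0.54 (0.39 to 0.70), and with a mitochondrial limit of 5%, with doublets kept or with each cell named alone it lay between 0.45 and 0.56.

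Il34 (chr8:110741829-110805924, minus strand) was read mainly in fibroblast-like cells. Fibroblast-like cells gave 82.2 CPM (69.7 to 96.4) in Ctrl and 44.0 CPM (34.2 to 55.6) in CL, a log2 ratio of -0.90 (-1.34 to -0.48), from 152 and 69 UMIs. The intervals of the levels did not overlap, and the highest cell held 11 UMIs in Ctrl and 6 in CL. The summed level of the 8 fibroblast markers in these cells came to 41823 CPM in Ctrl against 27934 CPM in CL, and its part in the Il34 ratio was not tested. The unnamed cluster 20, led by Sparcl1 and Myl9, stood at 44.7 and 35.7 CPM (-0.33, -1.65 to 0.98). Cluster 21, rich in fibroblast markers, stood at 37.0 and 54.7 CPM from only 4 and 5 UMIs, with no ratio computed. Basal-like cells stood at 8.69 and 6.68 CPM (-0.38, -1.26 to 0.47), and in cluster 20 and the basal-like class the libraries did not differ beyond counting error. Fibroblast-like cells thinned to 1571 UMIs held an Il34 UMI in 10.1% and 7.01% of cells (28.6% and 16.4% unthinned). In T and NK-like cells the gene was not detected in 213 and 734 cells. Endothelial-like, macrophage-like and monocyte-like cells also gave 0 UMIs, which allows up to 11.1 CPM in the 53 endothelial-like cells of Ctrl. Free RNA held 2.00 and 1.17 CPM.

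Csf3 (chr11:98701263-98703629, plus strand) was highest in endothelial-like cells, at 2185 CPM (2012 to 2369) in Ctrl and 2683 CPM (2539 to 2833) in CL, a log2 ratio of 0.30 (0.15 to 0.44). These values came from 588 UMIs in 53 cells and 1305 in 60. The class ratio was 0.47 with at least 1000 genes per cell, 0.47 with doublets kept and 0.82 with cells weighted equally. Cluster 18, led by Selp, Sele and Ackr1 (genes known from venous endothelium), was lower in CL, at 3600 and 2781 CPM (-0.37, -0.52 to -0.22). Cluster 22, led by Nts and Mmrn1 (genes known from lymphatic endothelium), gave 214 CPM in 19 Ctrl cells and 2014 CPM in 10 CL cells, too few for a ratio. The summed level of the 9 secretory luminal markers in endothelial-like cells came to 1145 CPM in Ctrl against 2373 CPM in CL, against 15427 and 13903 CPM in the secretory class, and its part in the Csf3 ratio was not tested.

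Secretory-lineage luminal-like cells, the cells that give rise to milk-producing alveoli, held 82.4% of all Csf3 UMIs in Ctrl and 81.8% in CL. Their level was 319 CPM (313 to 325) in Ctrl and 795 CPM (786 to 803) in CL, a log2 ratio of 1.32 (1.28 to 1.35), or 2.49-fold. In this class 295 of 12405 genes (2.38%) passed 2-fold in either direction, and Csf3 was the only one of the 3 members tested there that did. Each of the 6 secretory clusters had the higher level in CL. Cluster 5 went from 319 CPM in Ctrl to 1317 CPM in CL (2.04, 1.98 to 2.11) and cluster 7 from 60.3 to 294 CPM (2.29, 2.09 to 2.49). Cluster 4 had the smallest ratio (0.60, 0.54 to 0.65), at 523 and 790 CPM. Cluster 9, led by Cd74, Ubd and H2-Eb1, which belong to antigen presentation and interferon response, had 17 cells in Ctrl and 650 in CL, and without it the class ratio was 1.25 (1.22 to 1.29).

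**Figure D2:**
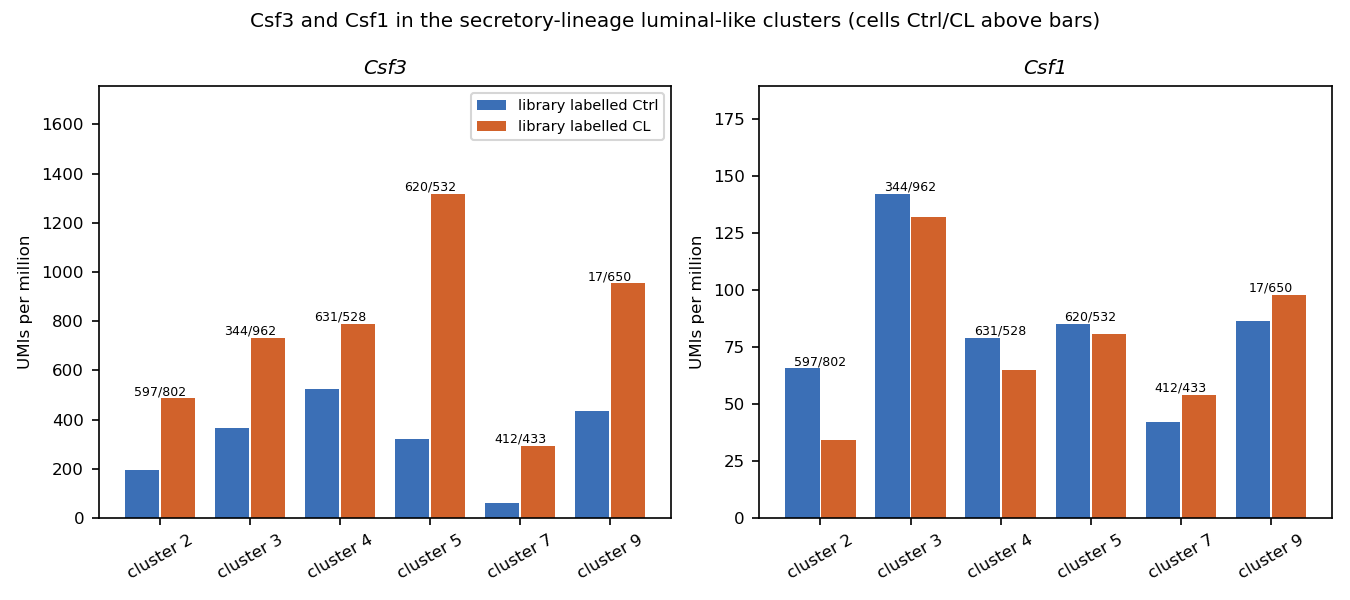
Level of Csf3 (left) and Csf1 (right) in CPM in each secretory-lineage luminal-like cluster, library labelled Ctrl in blue and CL in orange, with the number of cells Ctrl/CL above each pair and no error bars. Csf3 was higher in CL in all 6 clusters, whereas Csf1 was lower in CL in cluster 2 and higher in cluster 7.

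Csf3 was concentrated in few cells. In the secretory class 68.1% of Ctrl cells and 53.0% of CL cells held no Csf3 UMI. Cells with 50 or more UMIs were 1.84% (1.36% to 2.42%) of the class in Ctrl and 5.49% (4.80% to 6.25%) in CL, and they held 41.9% and 58.3% of the class's Csf3 UMIs. The highest single cell held 236 UMIs in Ctrl and 350 in CL. At a common depth of 5230 UMIs, 24.4% of 2426 cells in Ctrl and 38.8% of 3524 cells in CL had a Csf3 UMI (31.9% and 47.0% unthinned, at medians of 9703 and 9149 UMIs). The share in T and NK-like cells, thinned to 2320 UMIs, was 2.62% and 6.07% (5.63% and 12.5% unthinned).

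**Figure D3:**
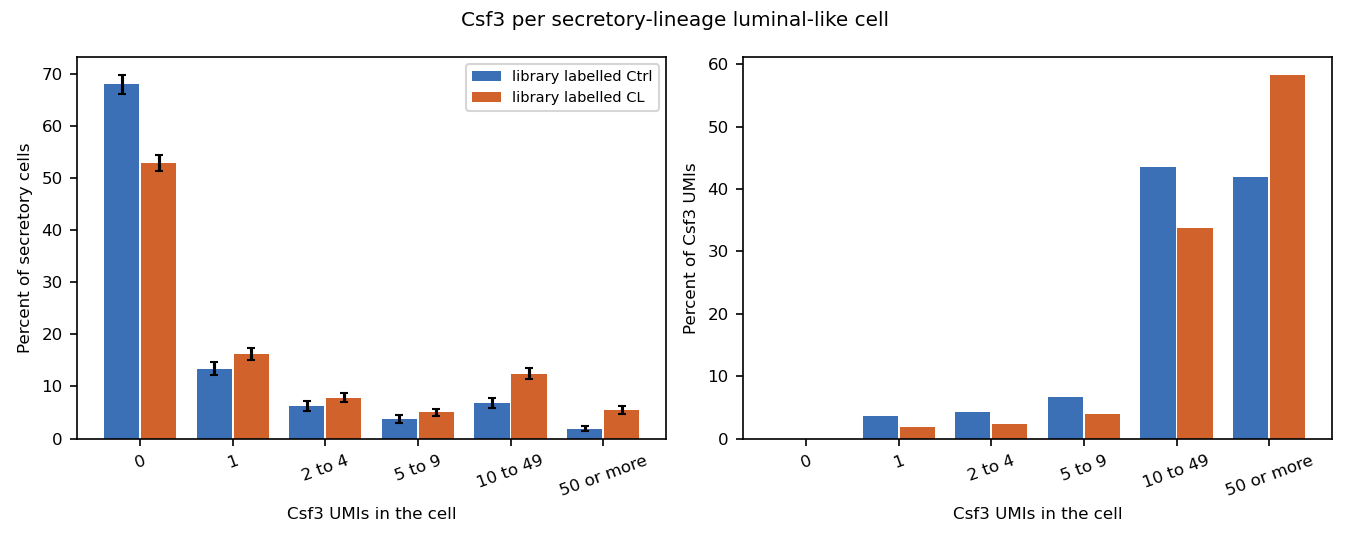
Number of Csf3 UMIs per secretory-lineage luminal-like cell (horizontal, in bins) against the percent of cells with exact 95% binomial intervals (left) and the percent of the class's Csf3 UMIs (right). Cells with 50 or more UMIs were 1.84% of the cells in Ctrl, against 5.49% in CL.

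Free Csf3 RNA was also higher in CL, 136 CPM in the empty droplets of Ctrl and 317 CPM in those of CL, a log2 ratio of 1.22 (1.13 to 1.31). The basal-like class (41.6 and 80.5 CPM), the hormone-responsive luminal-like class (21.6 and 42.2 CPM), the fibroblast-like class (13.0 and 55.4 CPM) and the T and NK-like class (11.1 and 44.9 CPM) all lay below the empty droplets of their own library. Single cells held much of some classes, such as 1 T and NK-like cell with 65 of the 172 UMIs of its class in CL. In each of these classes the marker of another class that was lowest against the empty droplets stood at 0.0322 of its level there (basal-like, Ctrl) or less. With Csf3 free RNA subtracted at that lowest share of each class and library, the log2 ratios were 0.99 in basal-like and 1.08 in hormone-responsive cells. In the fibroblast-like cells of CL and the T and NK-like cells of Ctrl that marker had 0 counts, so no subtraction was possible in 1 of the libraries and no such ratio is given. Without subtraction the ratios were 0.95 in basal-like, 0.97 in hormone-responsive, 2.09 in fibroblast-like and 2.02 in T and NK-like cells. Other settings moved them, to 0.63 in basal-like and 0.83 (-0.18 to 2.03) in T and NK-like cells with each cell named alone, and to 1.30 in fibroblast-like and 3.77 in T and NK-like cells with doublets kept. In hormone-responsive cells the ratio ran from 0.82 with no mitochondrial limit to 1.91 at a limit of 5%. Endothelial-like and secretory-lineage cells alone among the named classes lay above the empty droplets of their own library in both libraries.

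Csf2 (chr11:54247271-54249667, minus strand) was rare, with 43 UMIs in 13 Ctrl cells and 72 UMIs in 28 CL cells. The T and NK-like class held 9 UMIs in Ctrl against 55 in CL, or 8.30 and 14.4 CPM, which did not differ beyond counting error (log2 ratio 0.79, -0.24 to 1.99). In CL 1 cell of this class held 25 of the UMIs and another 12, so 2 of 734 cells carried over 50% of the class. With each cell named alone from its own markers, the class held 0 CPM of Csf2 in Ctrl and 1.48 CPM in CL, so the placement of Csf2 in this class depends on naming by cluster. Without the highest cell in each library the ratio was 2.08 (0.10 to 5.19). Hormone-responsive luminal-like cells held 26 UMIs in Ctrl against 1 in CL, and 17 of the 26 sat in 1 deep cell of 67636 UMIs, so no difference of the class is read from them. A Csf2 UMI was found in 1.41% and 2.18% of T and NK-like cells (1.05% and 1.04% when thinned to 2320 UMIs) and in 0.236% and 0.0389% of hormone-responsive cells, at medians of 20070.5 and 16892 UMIs in the latter and 4872 and 4458 in the former. Empty droplets gave 0.726 and 0.541 CPM.

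**Figure D4:**
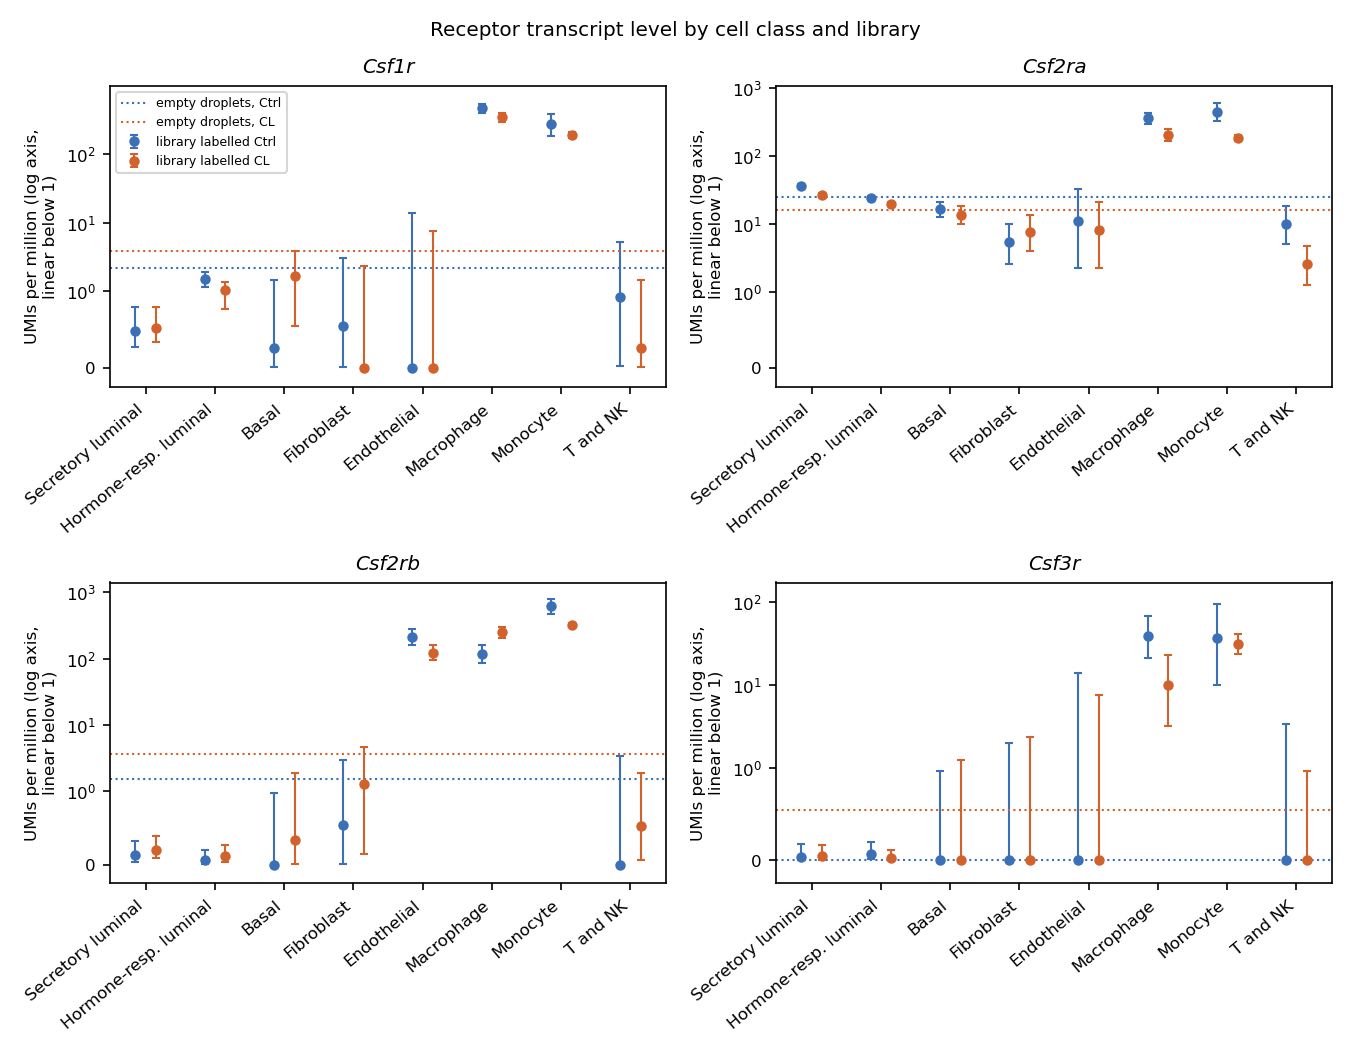
Level of the 4 receptor genes in CPM (vertical, logarithmic above 1) in 8 classes of cells, library labelled Ctrl in blue and CL in orange with exact 95% Poisson intervals, and empty droplets as dotted lines. Csf1r and Csf3r stood above background in macrophage-like and monocyte-like cells, Csf2rb also in endothelial-like cells, and Csf2ra in secretory luminal-like cells as well.

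Csf1r (chr18:61100598-61132149, plus strand) was read at 458 CPM (389 to 537) in the macrophage-like cells of Ctrl and at 342 CPM (293 to 397) in those of CL, a log2 ratio of -0.42 (-0.74 to -0.10), from 153 and 173 UMIs. The intervals of the levels overlapped. Thinned to 3995 UMIs, 86.5% of 37 Ctrl cells and 68.4% of 38 CL cells had a Csf1r UMI (85.4% and 86.0% unthinned, at medians of 7686 and 10718 UMIs). Monocyte-like cells stood at 267 CPM (179 to 384) from 18 Ctrl cells and 187 CPM (168 to 209) from 212 CL cells, with no ratio computed. At a Leiden resolution of 0.5, which joined the monocyte-like cells to the macrophage-like class, the ratio was -0.86 (-1.11 to -0.61). Hormone-responsive luminal-like cells gave 1.50 and 1.04 CPM, below the empty droplets at 2.18 and 3.87 CPM, and a UMI in 0.938% and 0.908% of thinned cells (2.69% and 1.67% unthinned). Endothelial-like cells gave 0 UMIs.

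Csf2ra (chr19:61223957-61228429, minus strand) was highest in the same myeloid cells. Macrophage-like cells gave 354 CPM (293 to 423) in Ctrl and 204 CPM (166 to 247) in CL, a log2 ratio of -0.79 (-1.19 to -0.40), and the intervals of the levels did not overlap. Within this class other markers also differed between the libraries, the 8 basal markers at 650 CPM in Ctrl and 39.6 CPM in CL, the 8 dendritic ones at 50.9 and 139 CPM and the 6 monocyte ones at 98.9 and 237 CPM, and their part in the ratios of Csf1r, Csf2ra and Csf2rb was not tested. Monocyte-like cells gave 443 CPM (326 to 587) and 182 CPM (162 to 203). The gene was also counted in luminal cells, at 36.4 and 26.9 CPM in the secretory class (-0.43, -0.55 to -0.31) and 23.8 and 19.8 CPM in the hormone-responsive class (-0.27, -0.40 to -0.14). Empty droplets held 24.6 and 15.9 CPM, a ratio of -0.63 (-0.91 to -0.35), so free Csf2ra was lower in CL as well. Of the luminal levels only the secretory one stood above the empty droplets in both libraries. Without cluster 6, of which 883 cells came from Ctrl and 45 from CL, the hormone-responsive ratio was -0.11 (-0.27 to 0.04). Within the secretory class the 5 clusters with a ratio all had the lower level in CL, beyond counting error in clusters 4, 5 and 7. Fibroblast-like cells, at 5.41 and 7.64 CPM, and T and NK-like cells, at 10.1 and 2.61 CPM, lay below the empty droplets.

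Csf2rb (chr15:78325752-78353847, plus strand) was found in 3 classes. Macrophage-like cells gave 120 CPM (85.6 to 163) in Ctrl and 249 CPM (208 to 297) in CL, a log2 ratio of 1.06 (0.53 to 1.61), from 40 and 126 UMIs. Endothelial-like cells gave 216 CPM (164 to 279) and 123 CPM (94.1 to 159), a ratio of -0.81 (-1.35 to -0.26). Monocyte-like cells had the highest level, 618 CPM (479 to 784) and 323 CPM (297 to 351). Thus 1 gene was higher in CL in one class and lower in another, and no test of that difference was possible. At a Leiden resolution of 0.5 the macrophage-like ratio was 0.36 (0.07 to 0.67). Thinned to 3995 UMIs, 29.7% and 57.9% of macrophage-like cells held a Csf2rb UMI (51.2% and 72.1% unthinned), against 0% and 0.0432% of thinned hormone-responsive cells. All endothelial UMIs of Csf2rb came from cluster 18 (370 and 141 CPM), and cluster 22 held 0. In endothelial-like cells the 10 macrophage markers gave 0 UMIs in Ctrl and 8 in CL. Luminal, basal and T and NK-like cells gave at most 9 UMIs each, below the empty droplets at 1.54 and 3.69 CPM.

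The neighbouring paralogue Csf2rb2 (chr15:78282507-78305721, minus strand), whose product is the IL-3-specific beta chain, was counted in the same classes, at 92.9 and 88.4 CPM in endothelial-like and 44.9 and 75.2 CPM in macrophage-like cells. In the GENCODE transcripts 28.0% of the 31-base words of the longest Csf2rb transcript also occur in Csf2rb2. In the last 500 bases 1.28% do. How the counting split reads from the shared stretches is uncertain.

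Csf3r (chr4:126024550-126044440, plus strand) was almost restricted to myeloid cells. Macrophage-like cells held 13 UMIs in Ctrl against 5 in CL (38.9 CPM, 20.7 to 66.6, and 9.89 CPM, 3.21 to 23.1), and monocyte-like cells 4 and 54 (36.9 CPM, 10.0 to 94.4, and 31.2 CPM, 23.5 to 40.8). The rest of the cells gave 4 UMIs in Ctrl and 3 in CL. Neutrophils, the chief bearers of this receptor, formed no cluster. Within the monocyte-like class 2 Ctrl and 10 CL cells held a UMI of the neutrophil gene Retnlg, and these carried 541 and 4376 UMIs of S100a9. They held 1 of the 4 and 9 of the 54 Csf3r UMIs. The 202 CL cells with no Retnlg held the other 45, beside 1312 UMIs of the monocyte gene Ly6c2 and 1005 of S100a9. In the macrophage-like cells Retnlg, Ly6g and Cxcr2 were at 0. T and NK-like cells gave 0 Csf3r UMIs in 213 and 734 cells, which allows up to 2.77 and 0.784 CPM.

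**Figure D5:**
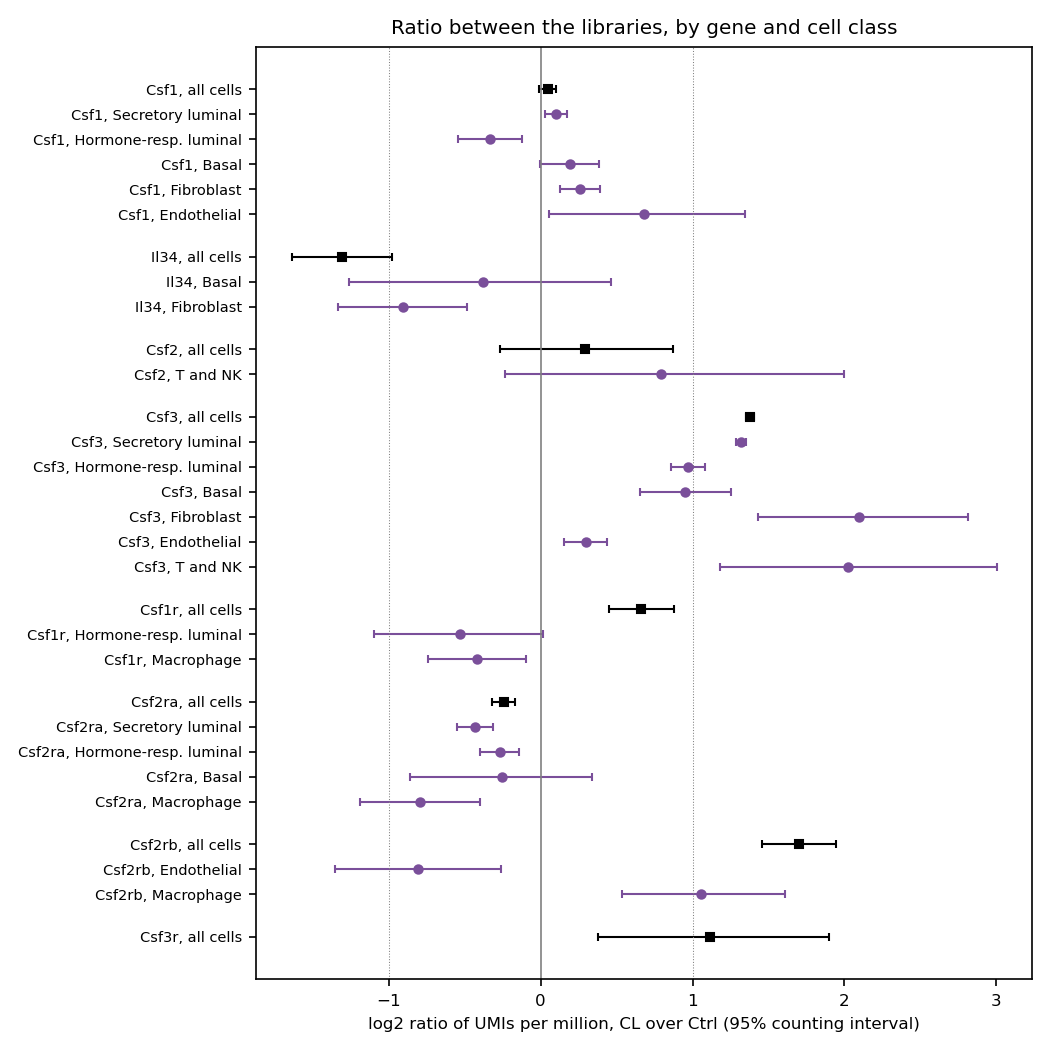
Log2 ratio of CPM, CL over Ctrl, for each member over all cells (squares) and in each class where it had at least 50 UMIs (circles), with exact 95% counting intervals; dotted lines mark 2-fold. Csf3 lies to the right of 0 in every class drawn and Csf2ra to the left, while Csf2rb lies on either side.

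The receptors were found together in single myeloid cells. Of the 35 Csf1r-positive macrophage-like cells in Ctrl, 29 held a Csf2ra UMI and 19 a Csf2rb UMI, and of the 37 in CL, 29 and 27 did. The cells without Csf1r were shallower, at medians of 2386 against 8572 UMIs in Ctrl and 7923.5 against 10877 in CL. With and without Csf1r, Csf2ra stood at 353 and 358 CPM in Ctrl and at 199 and 243 CPM in CL. Csf2rb stood at 120 and 119 CPM in Ctrl and at 261 and 156 CPM in CL. In the monocyte-like cells of CL, 111 of 131 Csf2ra-positive cells held Csf2rb against 45.7% of the cells without Csf2ra, whose median depth was 4128 UMIs against 9152. The Csf2rb level was 329 CPM in the cells with Csf2ra and 305 CPM in those without. Among ligands, 44.4% of the Csf1-positive secretory cells in Ctrl and 59.8% in CL held Csf3, against 26.9% and 41.4% of those without Csf1. The Csf1-positive cells were deeper here too (12311 against 9064.5 UMIs in Ctrl, 12243 against 8307 in CL), so the part of depth was not tested. The Csf3 level was 493 CPM with Csf1 and 218 CPM without in Ctrl, and 1068 and 616 CPM in CL.

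Of the 23 further genes of these pathways, 22 had at least 50 UMIs over all cells. Csf2rb2, Il17a and Spi1 (which encodes PU.1, a factor of myeloid cells) were past 2-fold higher in CL and Il5ra past 2-fold lower (4 of 22, against 5.74% of all genes), and the median log2 ratio over the list was 0.03. Il5, whose product shares the beta chain with GM-CSF, stood in the T and NK-like class at 170 CPM in Ctrl and 116 CPM in CL (-0.55, -0.80 to -0.29). The class drew on its 3 clusters unequally, and in cluster 12 (76 and 375 cells) Il5 stood at 457 and 183 CPM (-1.32), in cluster 13 (76 and 286 cells) at 0 and 82 UMIs, and in cluster 17 (61 and 73 cells) at 0 UMIs in both libraries. Il17a, a cytokine known to induce Csf3, was counted 1 time in the T and NK-like cells of Ctrl and 48 times in those of CL, all of them in cluster 12. In macrophage-like cells the inducers Il1b (2313 and 987 CPM, log2 ratio -1.23) and Tnf (318 and 107 CPM, -1.57) were more than 2-fold lower in CL. In that class 6.84% of 2163 genes passed 2-fold in either direction. Over all cells both were higher in CL, Il1b by 0.17 (0.04 to 0.29) and Tnf by 0.20 (0.13 to 0.26). Secretory cells held 1851 of 3169 Tnf UMIs in Ctrl and 2985 of 4953 in CL. Tnf was higher in CL in that class (0.19, 0.11 to 0.27) and lower in the hormone-responsive class (-0.13, -0.26 to -0.003). In hormone-responsive cells the IL-5 receptor chain Il5ra stood at 4.69 and 1.87 CPM (-1.33), past 2-fold as were 2.29% of the genes tested there, and the signal transducer Stat5a at 99.8 and 58.3 CPM (-0.78). Cluster 6, with 883 Ctrl and 45 CL cells of that class, held 148 of its Il5ra UMIs in Ctrl, and without it the ratios were -0.21 (-0.70 to 0.29) for Il5ra and -0.41 (-0.50 to -0.33) for Stat5a. The IL-34 partner Ptprz1 was read in secretory cells at 30.7 and 20.4 CPM (-0.59) and in basal-like cells at 37.1 and 43.1 CPM, within counting error (0.22, -0.14 to 0.57). Socs3, a feedback inhibitor of cytokine signalling, was lower in CL in macrophage-like (575 and 309 CPM, -0.90) and in the endothelial-like class (617 and 321 CPM, -0.94), and higher in CL in basal-like cells (832 and 919 CPM, 0.14, 0.07 to 0.22).

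The genes whose level varied most like each member were sought over 16 pairs of class and library, by Pearson correlation of log2(CPM + 1) among 12035 genes. These pairs share libraries and marker-defined classes, so the values only describe the pattern. Csf1 varied like Serpinh1 (r = 0.945), Il34 like Mmp23 (r = 0.997) and Gpc3 (r = 0.995), and Csf2 like Nkg7 (r = 0.953). The Csf2 pattern rests on few cells, since 1 T and NK-like cell held 7 of the 9 UMIs of its class in Ctrl. In CL 1 such cell held 25 of 55 and another 12, and the placement of Csf2 in that class depended on naming by cluster. Csf3 varied like Dock9 (r = 0.922), Csf1r like Cd300c2 (r = 0.99), and Csf2ra like Prdx1 (r = 0.956). Csf2rb varied like its paralogue Csf2rb2 (r = 0.939), and Csf3r like C5ar1 (r = 0.991).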

How the data were processed

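The authors deposited raw UMI counts per gene and barcode, as unfiltered matrices without normalization. The submitters' processing notes name Cell Ranger 2.1.1 and mm10, and per the file headers the matrices came from version 4. Gene positions were taken from GENCODE M21. The barcode lists did not index the matrices, so the 7217 and 10555 barcodes with most UMIs were taken as candidates. Cells had at least 500 genes and at most 15% mitochondrial UMIs. Scrublet marked 0 CL cells by its own threshold, and the Ctrl threshold was used for both (360 and 509 cells left out). Clustering (scanpy 1.11.5, 2000 variable genes without the members, 30 components, 15 neighbours, Leiden resolution 1.0) gave 25 clusters, of which 21 were named from marker lists ("-like"), 3 were not, and the cells of 1 dividing cluster were named singly. The naming score was revised after seeing the data, and differences from the study may come from it. The members and gene lists were chosen with earlier results of these data known. Named genes are the members, genes of the 23-gene pathway list, and for each member the most correlated genes, beside cell type markers and the leading genes of clusters, which were chosen after their values were seen. 1 macrophage marker is not reported here. The CPM, ratios (exact conditional binomial), Poisson and Clopper-Pearson intervals were computed from summed UMIs, ratios only with at least 20 cells per library and 20 UMIs, and shares after thinning to the 10th percentile of depth of the class. For 0 counts the limit is 3 counts. The interval was tested on simulated data. Alternatives concerned filters, doublets, resolution, naming, scaling (TMM, edgeR) and free RNA.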

Additional observations from a re-analysis of the deposited data

Results flagged for a closer look

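In 4 cases a member's level differed in opposite directions between CL and Ctrl in a pair of classes, beyond counting error in each. None of these differences was tested, since there was 1 library per group. Csf2rb was higher in CL in macrophage-like cells and lower in endothelial-like cells, and the log2 ratios differed by 1.86. Csf1 was higher in CL in endothelial-like, fibroblast-like and secretory-lineage luminal-like cells and lower in hormone-responsive luminal-like cells, and its log2 ratios differed from the hormone-responsive one by 1.01, 0.59 and 0.43. The secretory Csf1 ratio was within counting error without cluster 9 (0.06, -0.02 to 0.14). The hormone-responsive Csf1 level lay below that of the empty droplets in both libraries. Its ratio turned positive at a mitochondrial limit of 5% (0.56), with doublets kept and with each cell named alone. It also did so when the unnamed cluster with markers of both luminal lineages was counted with the class. Under those settings the Csf1 ratios of these classes no longer lay in opposite directions.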

How the results depend on the processing

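Of 328 alternative values of 28 log2 ratios, 287 lay within the counting interval of the reported value (60 of these were identical to it, mostly because the setting left the cells or the counts of that sum as they were), 35 moved beyond it, and 6 changed sign from a value beyond counting error. Of those that moved, 3 changed sign from a value within counting error of 0, all of Csf1 (-0.10 and -0.30 over all cells, -0.04 in basal-like cells). Csf1 in hormone-responsive cells changed sign with mitochondrial UMIs at most 5% (0.56), doublets kept (0.50), each cell named alone (0.45) and cluster 10 counted with the class (0.54). Without clusters with over 90% of cells from 1 library, chosen after seeing the data, Csf1r (-0.41) and Csf3r (-1.84) over all cells changed sign, Csf1 was -0.30, Csf3 0.95, Csf2ra -0.38 and Csf2rb 0.36 over all cells, and Csf3 in secretory cells 1.25. When cells were weighted equally (mean CPM per cell) the all-cell ratios were -0.10 (Csf1), 1.72 (Csf2), 1.13 (Csf3) and 1.06 (Csf2rb), and Csf3 in secretory cells 1.18. TMM factors gave Csf3 1.42 over all cells and 1.36 in secretory cells. The 5% mitochondrial limit gave Csf3 1.31 over all cells, and no limit gave Csf2rb 1.97. At Leiden resolution 0.5, where the macrophage-like class grew to 62 and 273 cells, Csf1r was -0.86 and Csf2rb 0.36 in it. With at least 200 UMIs, 507 genes passed 2-fold over all cells and 114 in secretory cells. Causes other than the cells left out or added were not tested. No paired analysis was possible because each group had 1 library. With 18 monocyte-like cells in Ctrl, no ratio was computed for that class.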
